A study of Mus musculus with 12 samples.

Results

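The genes of the proteasome, the barrel-shaped protease that degrades ubiquitin-tagged proteins, were examined in the livers of obese mice with and without ethionine. Members were all protein-coding genes whose symbol begins with Psma, Psmb, Psmc, Psmd, Psme, Psmf or Psmg followed by a number and that had at least 10 counts in at least 6 of the 12 libraries. Of the 56205 genes in the count table, 50 protein-coding genes carried such a symbol and 47 reached the count limit. Psmb11, a subunit of the thymus, had no count in any library. Psme2b reached 10 counts in 1 library and Psmc3ip, whose product is a recombination factor and no proteasome subunit, in 4.

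RNA-Seq was performed on poly(A)-selected RNA from whole liver of ob/ob mice (B6.Cg-Lepob/J), with 1 library per mouse and 6 mice in each group. All 12 mice lacked leptin and were labelled male, and per the study's methods they were 8 to 10 weeks old when treatment began. The FLO group ate standard chow. The fibrotic group ate the same chow and was also given DL-ethionine, an ethyl analog of methionine that is toxic to the liver. The sources disagree on the treatment, which is 0.165% in drinking water for 2 weeks in the design text, an injection of 0.15% in the growth label, and 0.15% in drinking water for 1 week in the methods. The name fibrotic is that of the labels, and no measure of fibrosis was used here.

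The 26S proteasome has a 20S core, made of stacked rings of alpha and beta subunits, and 19S caps that bind ubiquitin chains, remove them, unfold the substrate and thread it into the core. The beta subunits encoded by Psmb5, Psmb6 and Psmb7 carry the proteolytic sites. Under interferon, and constantly in many immune cells, they are replaced in new particles by the products of Psmb8, Psmb9 and Psmb10, which gives the immunoproteasome and favours peptides for MHC class I. The transcription factor Nfe2l1 is known to raise the 20S and 19S genes together when proteasome capacity is short, through antioxidant response elements in their promoters.

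Short promoter stretches are shown for the members with the core letters of that element. These are standard subunits, the assembly chaperone gene Psmd9 and the activator gene Psme4. A stretch of the interferon-inducible Psmb8 is shown as well. RefSeq promoter windows (GRCm38.p6, 250 bases before to 50 after the start) were found for 39 of the 47 members. The letters TGACNNNGC, the core of the antioxidant response element, occurred on either strand in 6 of the 42 windows of these genes (14.3%), against 12.4% of 32851 windows of all genes. The 2 shares are close, so these letters do not set the members apart, and binding to them was not tested. The core of the gamma-activated sequence, TTCNNNGAA, an interferon-gamma element, was in 3 member windows (7.14%), against 8.30% of all windows. These were the windows of Psmb8, Psmd2 and Psmg1, of which only that of Psmb8 is shown. In the stretches below the capitals mark the match, and each line runs 5′ to 3′ along the strand of the gene.
Psmb5, chr14:54618014-54618062, minus strand: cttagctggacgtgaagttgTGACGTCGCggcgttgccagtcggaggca
Psmb6, chr11:70525328-70525376, plus strand: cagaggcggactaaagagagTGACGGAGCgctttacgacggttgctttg
Psmd9, chr5:123228139-123228187, plus strand: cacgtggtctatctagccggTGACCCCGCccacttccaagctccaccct
Psmc6, chr14:45329577-45329625, plus strand: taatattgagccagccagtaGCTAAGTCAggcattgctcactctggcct
Psmd12, chr11:107479278-107479309, plus strand: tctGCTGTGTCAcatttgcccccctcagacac
Psme4, chr11:30771748-30771796, plus strand: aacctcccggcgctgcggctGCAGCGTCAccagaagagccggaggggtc
Psmb8, chr17:34198078-34198126, plus strand: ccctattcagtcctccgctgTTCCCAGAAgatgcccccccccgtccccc
The antioxidant element core began 47 bases before the start of Psmb5, 31 before that of Psmd9 and 9 before that of Psmb6, and the Psmb8 match began 97 bases before its start. Only the search for the antioxidant element core was planned, and that for the gamma-activated core was added. A further motif, the core of interferon-stimulated response elements (a GAAA repeat with 2 bases between), was searched after the values were seen. It was in 5 of the 42 windows (11.9%, those of Psmb3, Psmd4, Psmd9, Psme1 and Psmg4), against 3.44% of all windows, and in none of the windows of Psmb8, Psmb9 and Psmb10.

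Libraries held 17815568 to 24814263 counts. Members took 0.330% ± 0.030 of them in fibrotic livers and 0.318% ± 0.011 in FLO livers (SD, n = 6 each). FLO replicate 3 had 3773 counts of Xist and 4 of Ddx3y, while the other libraries had at most 4 of Xist and at least 556 of Ddx3y, which goes against its male label. Mitochondrial genes took 6.49% ± 1.15 of counts in fibrotic and 8.62% ± 1.09 in FLO livers (SD, n = 6). The summed level of 8 hepatocyte markers was 52782 to 89341 CPM (counts scaled to a common library size) in fibrotic and 81001 to 93145 in FLO libraries. These genes were the most abundant of the marker lists. They were split, with Apoa1 called lower (log2 fold change -1.68), Cps1 called higher (0.73) and the other 6, Alb among them, not called. The log2 fold change was below 0 for 6 of the 8 and above 0 for 2. In whole tissue, fewer cells of a type and less RNA per cell cannot be told apart.

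Of the 31 genes of the standard proteasome, 15 were modestly lower in fibrotic livers and 4 higher, while 12 did not pass the test. Psmb8 and the inhibitor gene Psmf1 were higher. A gene passed the test at an edgeR quasi-likelihood adjusted p of 0.01 or less, and was called when its absolute log2 fold change (fibrotic against FLO, with TMM normalization) was also over 0.5. All 47 members were among the 13416 genes tested. Psmb8, Psmf1 and Psmg4 were called higher, 3 of 47 where 15.9% of all tested genes were called in that direction. Psmd14, Psmd1 and Psmd9 were called lower, again 3 of 47, against 14% of all tested genes. With no limit on the fold, 16 members fell and 8 rose, where 18.6% and 20.3% of all tested genes did so, and 23 members did not pass.

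The direction was shared more widely than the calls. All 6 fibrotic libraries lay below all 6 FLO libraries for 17 members (36.2%), against 15.1% of all tested genes. The reverse order was found for 5 members (10.6%), against 15.3% of all tested genes. The median log2 fold change was -0.18 over the members and 0.03 over all tested genes. These values depend on scaling. With library size alone and no TMM factor, the median of all tested genes moved up by 0.18, 5 members were called higher and 1 lower, and 10 rose and 6 fell with no limit on the fold.

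**Figure D1:**
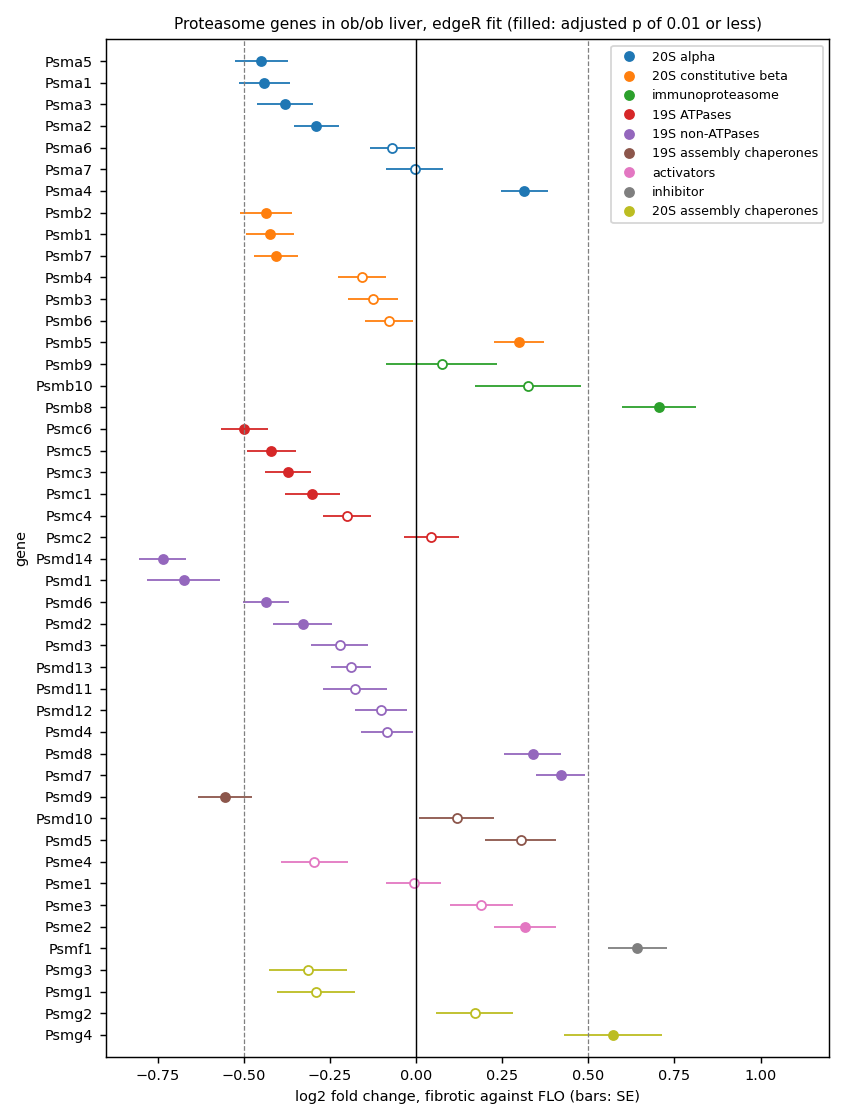
Log2 fold change of 46 proteasome genes, fibrotic against FLO (x axis), for each gene (y axis) grouped by role, from the edgeR fit with TMM scaling. Points are estimates, bars the standard error, filled points have an adjusted p of 0.01 or less, and dashed lines mark a log2 change of 0.5 in each direction. The rarely detected Psma8 is left out. Among 20S and 19S subunits most points lie left of 0, with Psma4, Psmb5, Psmd7 and Psmd8 as the filled points on the right. Scaling by library size alone moves the median of all genes right by 0.18 and brings 8 of the 20S and 19S genes with a value below 0 in this plot past it.

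The 14 genes of the 20S core and the 17 of the 19S cap were alike in their medians, -0.22 for each. Of these 31 genes, 15 fell and 4 rose, where 18.6% and 20.3% of all tested genes did so. A value below 0 was found for 26 of the 31, while 51.7% of all tested genes had a value above 0. Of the 26, Psma6, Psma7, Psmb3, Psmb4, Psmb6, Psmd4, Psmd11 and Psmd12 turned positive with library size alone. The median of the 31 genes, taken in each library as the log2 difference from the FLO mean, was -0.31 at the lowest, -0.26 at the median and -0.16 at the highest among fibrotic libraries. The FLO libraries gave -0.07, -0.01 and 0.10. The 2 groups did not overlap in this summary, which shares its scaling with the fold changes.

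**Figure D2:**
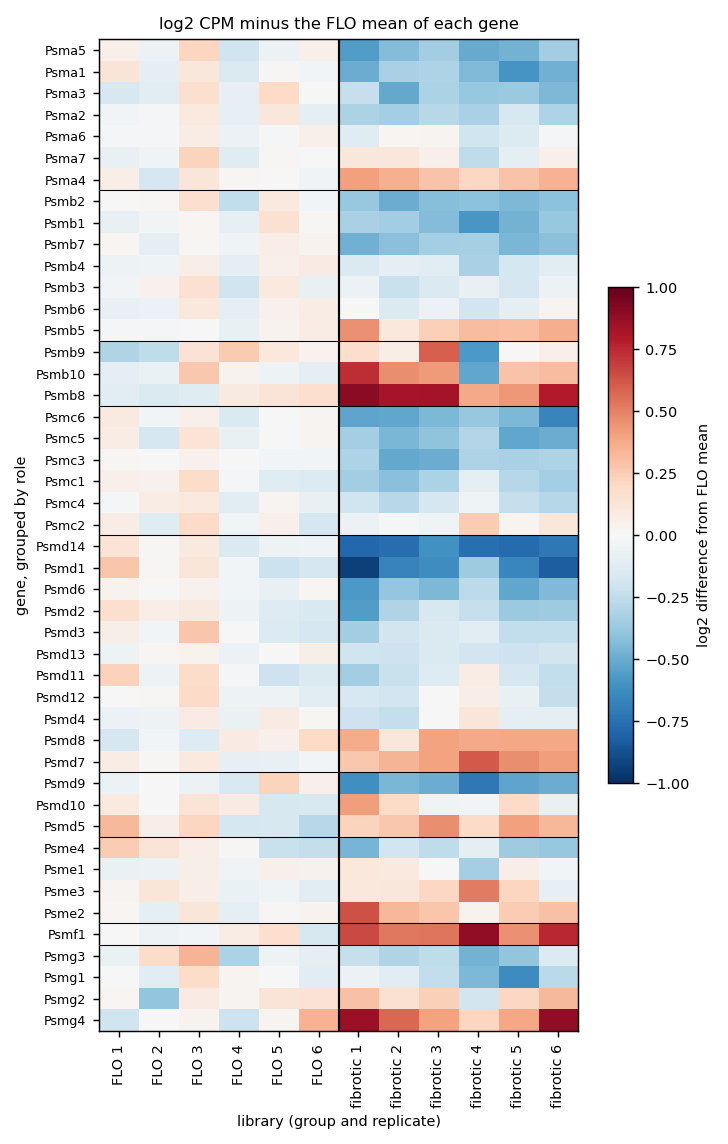
Log2 CPM of 46 proteasome genes (rows, grouped by role) in each of the 12 libraries (columns, FLO on the left), as the difference from the FLO mean of that gene. Blue is lower and red higher than the FLO mean on a log2 scale from -1 to 1. Blue runs through most 20S and 19S rows in all 6 fibrotic columns, while Psma4, Psmb5, Psmd7, Psmd8, Psmb8 and Psmf1 stand out in red. Fibrotic replicate 4 is blue for Psmb9 and Psmb10, unlike most of its group.

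Among the 7 alpha subunits, which form the outer rings and the gate of the core, Psma1, Psma2, Psma3 and Psma5 fell and Psma4 rose. Psma5 had the largest decrease of the class, with 30.9, 33.2 and 35.8 CPM (lowest, median and highest of 6) in fibrotic livers and 39.8, 45.5 and 52.8 CPM in FLO livers, a log2 fold change of -0.45 ± 0.08 (SE, edgeR adjusted p = 0.000176). Psma4, which encodes the alpha subunit whose tail helps close the gate, had 73.9, 80.2 and 85.2 CPM in fibrotic livers and 57.0, 64.5 and 69.8 CPM in FLO livers. All fibrotic libraries were above all FLO libraries, and the log2 fold change was 0.31 ± 0.07 (SE, edgeR adjusted p = 0.00127). Psma4 and Psma5 share exon bases with genes on the opposite strand, AY074887 and 1700010K24Rik, and since strand-specific counting is not stated their reads may be mixed. Psma6 and Psma7, at -0.07 and -0.00, did not pass, and both turned to positive values with library size alone. The median of the class was -0.29 with TMM and -0.11 with library size alone.

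The 7 standard beta subunits showed the same mixed picture, with Psmb1, Psmb2 and Psmb7 lower and Psmb5 higher. Psmb2 had 19.7, 20.8 and 21.4 CPM in fibrotic and 23.5, 27.9 and 31.2 CPM in FLO livers (log2 fold change -0.43 ± 0.08 SE, edgeR adjusted p = 0.000190). Psmb3, Psmb4 and Psmb6 had values of -0.12, -0.16 and -0.08 and did not pass, and each turned positive with library size alone. The class median was -0.16, and 0.02 with library size alone.

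The 3 catalytic subunits of the standard core thus differed from each other. Psmb5, which cleaves after hydrophobic residues, had 152, 175 and 195 CPM in fibrotic livers and 134, 141 and 149 CPM in FLO livers. The groups did not overlap, and the log2 fold change was 0.30 ± 0.07 (SE, edgeR adjusted p = 0.00296). With no filter on low counts it did not pass (edgeR adjusted p = 0.0122). Psmb6, with caspase-like activity, had 90.3, 97.6 and 105 CPM against 96.7, 103 and 111 CPM, which overlapped (log2 fold change -0.08, edgeR adjusted p = 0.362). Psmb7, with trypsin-like activity, had 99.3, 104 and 110 CPM against 130, 140 and 145 CPM. Its groups did not overlap and the log2 fold change was -0.41 ± 0.06 (SE, edgeR adjusted p = 7.82e-05). Psmb7 shares exon bases with Nek6 on the opposite strand.

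Of the 3 immunoproteasome genes only Psmb8 passed the test. Psmb8 (chromosome 17, 34197721 to 34201454, GRCm38, plus strand), the inducible counterpart of Psmb5, had 21.8, 29.4 and 31.4 CPM in fibrotic livers and 15.2, 16.6 and 18.8 CPM in FLO livers. All 6 fibrotic libraries were above all 6 FLO libraries, with replicates 4 and 5 nearest to the FLO range. The log2 fold change was 0.71 ± 0.11 (SE, edgeR adjusted p = 5.69e-05), an increase of 63.0%. Psmb9 (chromosome 17, 34181987 to 34187764, minus strand), the counterpart of Psmb6, had 7.63, 11.9 and 17.3 CPM against 9.24, 12.02 and 13.7 CPM. Its fibrotic libraries lay on both sides of the FLO range, and the log2 fold change of 0.07 ± 0.16 (SE) had an edgeR adjusted p of 0.720. Psmb10 (chromosome 8, 105935735 to 105938444, minus strand), the counterpart of Psmb7, had 18.02, 33.3 and 43.3 CPM against 24.1, 24.8 and 31.2 CPM. In 5 of the 6 fibrotic libraries Psmb10 was above every FLO library, and in fibrotic replicate 4 it was below every one.

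The spread of Psmb10 decided its test. Over all libraries its log2 fold change was 0.33 ± 0.15 (SE, edgeR adjusted p = 0.0903). Without fibrotic replicate 4 it was 0.46, with an edgeR adjusted p of 0.000979. With library size alone and no library left out it was 0.49, with an edgeR adjusted p of 0.00693. At TMM-scaled library sizes fibrotic replicate 4 also had the lowest level of its group for Psmb8, Psmb9 and Psme1. Psmb8 and Psmb9 share exon bases with Gm20496 and Tap1 on the opposite strand, so that their counts may hold reads of these genes. In RefSeq the start of Psmb9 lies 226 bases from that of Tap1, a peptide transporter gene transcribed the other way, which had 30.7, 34.5 and 40.0 CPM in fibrotic and 18.2, 26.1 and 30.3 CPM in FLO livers (log2 fold change 0.49 ± 0.12 SE, edgeR adjusted p = 0.00242).

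**Figure D3:**
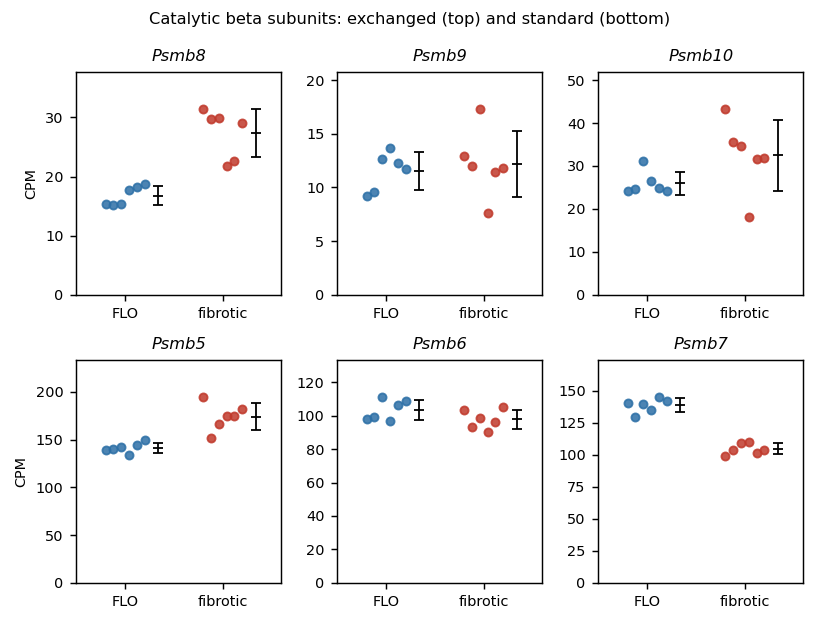
CPM at TMM-scaled library sizes (y axes, each starting at 0) of the inducible catalytic subunit genes (top) and of the standard subunit each one replaces (bottom) in 6 FLO (blue) and 6 fibrotic (red) libraries. Black bars are the mean and SD. Psmb8 and Psmb5 are above the FLO range in all 6 fibrotic libraries and Psmb7 is below it, while Psmb10 is above it in 5 and below it in 1.

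Per kilobase of transcript, the standard subunit transcripts outnumbered the inducible ones in both groups. In FLO livers the mean CPM per kilobase was 15.3 times higher for Psmb5 than for Psmb8, 15.2 times for Psmb6 over Psmb9 and 6.04 times for Psmb7 over Psmb10. In fibrotic livers these ratios were 11.5, 13.6 and 3.63. Lengths were those of the longest principal transcript in GENCODE, so the ratios are approximate.

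The balance within each pair does not depend on library scaling and was tested as the log2 ratio in each library. The ratio of Psmb8 to Psmb5 was -3.00, -2.64 and -2.35 (lowest, median and highest) in fibrotic and -3.20, -3.08 and -2.91 in FLO livers. It was higher by 0.40 in fibrotic livers, with overlapping groups (two-sided exact permutation p = 0.0152, adjusted over 4 ratios p = 0.0303). The ratio of Psmb10 to Psmb7 was -2.61, -1.66 and -1.20 against -2.55, -2.46 and -2.16, and was higher by 0.69 (exact permutation p = 0.0152, adjusted p = 0.0303). Fibrotic replicate 4 had the lowest ratio of all 12 libraries for this pair, and the other 5 fibrotic libraries were above every FLO library. Without it the difference was 0.87 (exact permutation p = 0.00216). For Psmb9 to Psmb6 the difference was 0.13 (exact permutation p = 0.457, adjusted p = 0.457). The limit for these ratios was an exact permutation p of 0.05, wider than the 0.01 used for single genes. Of the genes in the 2 ratios under that limit, Psmb8 and Psmb5 both rose and Psmb7 fell. Psmb10 did not pass the edgeR test by itself with TMM.

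**Figure D4:**
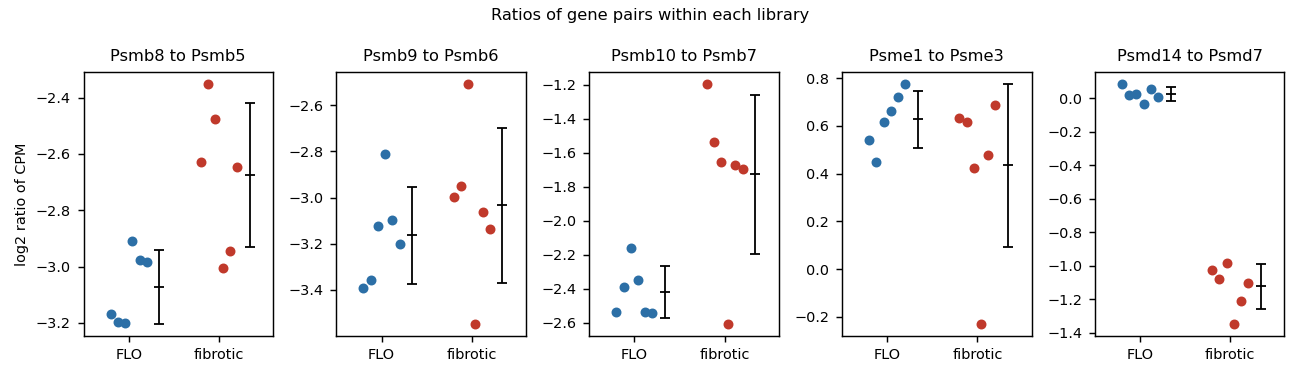
Log2 ratio of CPM (y axes) of 5 gene pairs within each of 6 FLO (blue) and 6 fibrotic (red) libraries, with mean and SD as black bars. Psmb8 to Psmb5 and Psmb10 to Psmb7 are higher in fibrotic livers by 0.40 and 0.69, with 1 low fibrotic library in the second. The Psmd14 to Psmd7 pair was chosen after its values were seen, and its groups are apart by 1.15.

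Some markers of other cell types were also higher in fibrotic livers. The summed level of 12 leukocyte markers was 168 to 290 CPM in fibrotic and 150 to 211 CPM in FLO libraries, and 2 of the 8 that could be tested, Lyz2 and Adgre1, were called higher, while the other 6 did not pass and Itgax and Cd8a had values of -0.30 and -0.05. The defining lymphocyte genes Cd3e, Cd3g, Cd79a and Ms4a1 were too low to be tested. Of 5 Kupffer cell markers 4 were called higher, and their sum was 171 to 331 CPM against 121 to 157 CPM. Of 5 cholangiocyte markers 3 were called higher, with sums of 80.6 to 273 CPM against 47.0 to 87.9 CPM, and of 4 endothelial markers 1 was called lower, with sums of 68.9 to 100 CPM against 104 to 118 CPM. No marker was at 0 in all libraries. The part of these cells in the levels of Psmb8 and the other members was not tested.

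The 6 ATPases of the 19S base form the ring that unfolds substrates. Psmc1, Psmc3, Psmc5 and Psmc6 fell, and none of the 6 rose. Psmc6 had 40.0, 45.1 and 48.7 CPM in fibrotic livers and 57.2, 64.1 and 67.4 CPM in FLO livers, with no overlap. Its log2 fold change of -0.50 ± 0.07 (SE, edgeR adjusted p = 2.41e-05) was just inside the fold limit, so it was not called. Psmc1, at -0.30 with an edgeR adjusted p of 0.00489, no longer passed without any one of fibrotic replicates 1, 2, 3, 5 and 6 or FLO replicates 1, 2 and 3 (edgeR adjusted p of 0.0101 to 0.0131). Psmc2 had the value nearest to 0 of the class, 0.04, with an edgeR adjusted p of 0.665. The class median, -0.34, was the lowest of all classes with more than 1 gene, and -0.15 with library size alone.

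The 11 non-ATPase genes of the 19S cap held both the largest decreases and the largest increases of the standard particle. Psmd14 (chromosome 2, 61711694 to 61800376, plus strand) encodes the deubiquitinase that cuts ubiquitin chains from substrates as they enter. It had 29.4, 29.9 and 33.4 CPM in fibrotic livers and 45.9, 50.05 and 55.7 CPM in FLO livers. The lowest FLO library was well above the highest fibrotic one, and the log2 fold change was -0.74 ± 0.07 (SE, edgeR adjusted p = 6.03e-07). It stayed called in every alternative run, including library size alone, where it was -0.56.

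Psmd7, which encodes the inactive partner that binds the Psmd14 protein as a dimer, moved the other way. It had 59.9, 66.3 and 76.3 CPM in fibrotic livers and 47.0, 49.6 and 53.2 CPM in FLO livers, again without overlap (log2 fold change 0.42 ± 0.07 SE, edgeR adjusted p = 0.000172). The log2 ratio of Psmd14 to Psmd7, which library scaling does not touch, was -1.35, -1.09 and -0.98 in fibrotic and -0.03, 0.02 and 0.08 in FLO livers. The ratio was near 0 in every FLO library and close to -1 or below in every fibrotic one. CPM is not per length, so only the difference of 1.15 between the groups can be read and not the relative abundance of the transcripts. This pair was chosen after its values were seen, and no test is given.

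Psmd1 (chromosome 1, 86064387 to 86139151, plus strand), which encodes the larger scaffold of the base, had 53.9, 65.0 and 80.2 CPM in fibrotic and 88.5, 102 and 125 CPM in FLO livers. The groups did not overlap, and the log2 fold change was -0.67 ± 0.11 (SE, edgeR adjusted p = 7.57e-05). With library size alone it was -0.49 and no longer past the fold limit, and it shares exon bases with Htr2b on the opposite strand and Gm21972 on the same strand. Psmd2, the other scaffold and a docking site for shuttle proteins, had 125, 147 and 164 CPM against 165, 185 and 207 CPM (log2 fold change -0.33, edgeR adjusted p = 0.00475), and did not pass without any one of fibrotic replicates 1, 5 and 6 or FLO replicates 1, 2 and 3 (edgeR adjusted p of 0.0110 to 0.0138). Psmd6, a lid subunit, had 44.5, 48.7 and 55.3 CPM against 62.9, 66.9 and 68.2 CPM (log2 fold change -0.44, edgeR adjusted p = 6.73e-05). In both genes all fibrotic libraries were below all FLO libraries.

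Psmd8, another lid gene, rose by 26.5%. It had 156, 188 and 190 CPM in fibrotic livers and 128, 145 and 165 CPM in FLO livers (log2 fold change 0.34 ± 0.08 SE, edgeR adjusted p = 0.00305). Fibrotic replicate 2 had the lowest of the fibrotic values and lay inside the FLO range, while the other 5 were above it. Psmd3, Psmd4, Psmd11, Psmd12 and Psmd13 had log2 fold changes between -0.22 and -0.08 and did not pass. Psmd4, which encodes an intrinsic ubiquitin receptor, was at the upper end of these, and Psmd4, Psmd11 and Psmd12 turned positive with library size alone. Psmd13 did not overlap between groups, with 73.9 to 77.1 CPM in fibrotic and 81.9 to 88.9 CPM in FLO livers (edgeR adjusted p = 0.0126).

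**Figure D5:**
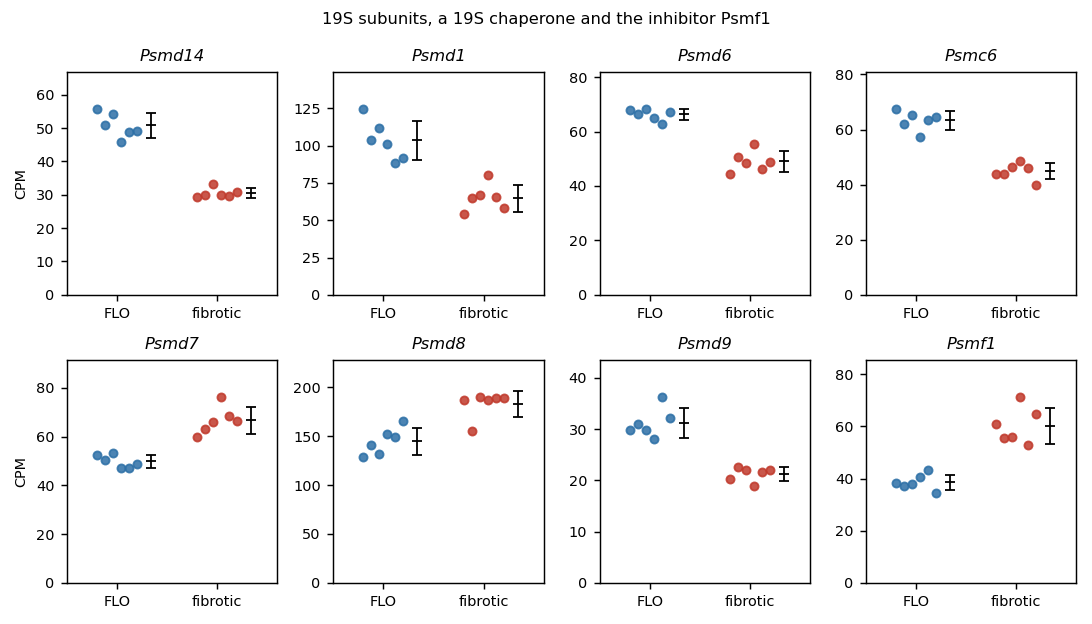
CPM at TMM-scaled library sizes (y axes, each starting at 0) of 6 genes of the 19S cap, the 19S assembly chaperone Psmd9 and the inhibitor Psmf1 in 6 FLO (blue) and 6 fibrotic (red) libraries, with mean and SD as black bars. Psmd14, Psmd1, Psmd6, Psmc6 and Psmd9 are lower in all 6 fibrotic libraries than in any FLO library, and Psmd7 and Psmf1 are higher. Psmd8 overlaps in 1 fibrotic library. Psmd1 and Psmd9 pass the fold limit with TMM but not with library size alone. Psmd7 and Psmd8 pass it with library size alone (log2 fold changes of 0.61 and 0.52) but not with TMM.

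The 3 chaperones that help build the 19S base did not move together. Psmd9 (chromosome 5, 123169413 to 123250131, plus strand), which holds a pair of ATPases during assembly, had 18.9, 21.8 and 22.7 CPM in fibrotic and 28.0, 30.5 and 36.2 CPM in FLO livers. It was called lower at -0.56 ± 0.08 (SE, edgeR adjusted p = 2.96e-05), and was -0.38 with library size alone. It shares exon bases with Gm26745 on the opposite strand. Psmd5 was at 0.30 (edgeR adjusted p = 0.0216) and Psmd10, also known as gankyrin, at 0.12 (edgeR adjusted p = 0.383). In the window of Psmd9 both the antioxidant element core shown above and the interferon element core were present.

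Among the 4 chaperones of 20S assembly, Psmg4 alone passed. Psmg4 (chromosome 13, 34162964 to 34178173, plus strand), which supports alpha ring formation with Psmg3, had 7.02, 8.55 and 11.2 CPM in fibrotic and 5.24, 6.09 and 7.72 CPM in FLO livers. Its groups overlapped, and the log2 fold change was 0.57 ± 0.14 (SE, edgeR adjusted p = 0.00344). The call was lost without fibrotic replicate 6 (log2 fold change 0.50, edgeR adjusted p = 0.0101) and without FLO replicate 4 (0.53, edgeR adjusted p = 0.0103). Its partner Psmg3 was at -0.31 (edgeR adjusted p = 0.0300), and Psmg1 and Psmg2, which form the other chaperone pair, were at -0.29 and 0.17, with adjusted p-values of 0.0403 and 0.216. The group means of the 4 genes lay between 6.10 and 13.3 CPM.

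Of the activators that cap the core in place of 19S, Psme2 rose and the others did not pass. Psme1 and Psme2 encode the interferon-inducible PA28 pair, Psme3 its nuclear relative and Psme4 the large activator PA200. Psme2 had 61.2, 73.0 and 93.1 CPM in fibrotic and 56.0, 60.5 and 65.0 CPM in FLO livers. In 5 of 6 fibrotic libraries it was above the FLO range (log2 fold change 0.32 ± 0.09 SE, edgeR adjusted p = 0.00775). It passed again without fibrotic replicate 4 or FLO replicate 3, but not without any one of the other 10 libraries (edgeR adjusted p of 0.0110 to 0.0211). Psme1 had 63.7, 82.5 and 86.7 CPM against 77.0, 80.8 and 83.7 CPM, a log2 fold change of -0.01 (edgeR adjusted p = 0.955). Fibrotic replicate 4 was again the lowest. Psme3 was at 0.19 (edgeR adjusted p = 0.0913) and Psme4 at -0.30 (edgeR adjusted p = 0.0186). The ratio of Psme1 to Psme3 was lower by 0.19 on the log2 scale in fibrotic livers (exact permutation p = 0.201, adjusted p = 0.268), and by 0.06 without fibrotic replicate 4.

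Psmf1 (chromosome 2, 151715812 to 151744186, minus strand) encodes PI31, first described as an inhibitor of the 20S core and also known as an adaptor for proteasome transport. It had 52.8, 58.3 and 71.3 CPM in fibrotic and 34.5, 38.1 and 43.1 CPM in FLO livers. Every fibrotic library was above every FLO library, and the log2 fold change was 0.64 ± 0.09 (SE, edgeR adjusted p = 1.76e-05). It stayed called in every alternative run. Psma8, the germ cell form of an alpha subunit, had 3 to 15 counts in each library and a log2 fold change of -0.51 ± 0.38 (SE, edgeR adjusted p = 0.286).

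Across the 12 libraries, after the group means were taken out, the pairwise Pearson correlation of log2 CPM had a median of 0.36 among the 14 genes of the 20S core and 0.44 among the 17 of the 19S cap. It ranged from -0.34 to 0.95 in the core and from -0.59 to 0.96 in the cap. Among the 3 immunoproteasome genes with Psme1 and Psme2 it had a median of 0.69 and ranged from 0.46 to 0.90. At TMM-scaled library sizes fibrotic replicate 4 was the lowest of its group for all 5 of these genes, and no correlation was computed without it. Between these 5 genes and the 31 of the core and cap the median was -0.09, with a range of -0.86 to 0.83. The genes of a library share its depth and scaling, so these values are a description.

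Genes of the proteasome pathway outside the symbol rule were taken from a list of 48. Of the 47 tested, 7 were called in each direction, or 14.9% each, which is near the 15.9% and 14% of all tested genes, so the counts do not set the list apart and the genes are given for their own values. Among regulators, Nfe2l2, the oxidative stress factor related to Nfe2l1, had 152, 167 and 308 CPM in fibrotic and 70.4, 86.1 and 91.3 CPM in FLO livers (log2 fold change 1.28 ± 0.18 SE, edgeR adjusted p = 3.07e-05). Nfe2l1 itself had 218, 241 and 270 CPM against 169, 181 and 210 CPM, without overlap (log2 fold change 0.39 ± 0.08 SE, edgeR adjusted p = 0.000978), and was not past the fold limit. Ngly1, the deglycosylase that Nfe2l1 protein needs for its activation, was called lower at -0.85 ± 0.10 (SE, edgeR adjusted p = 5.32e-06). Its CPM was 19.6, 24.8 and 28.7 in fibrotic and 41.2, 42.7 and 50.3 in FLO livers. Maff, a small partner of these factors, was called lower by 50.1%, with overlapping groups (edgeR adjusted p = 0.00737), a call that was lost without any one library but FLO replicates 3 and 4 (edgeR adjusted p up to 0.0193). The 2 transcription factor genes were thus higher and the gene of the activating enzyme lower in every fibrotic library than in any FLO library.

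Of 12 genes for proteins that bind or mature the proteasome, 4 fell and none rose, where 18.6% and 20.3% of all tested genes did so. Ecpas, which encodes a scaffold that tethers 19S to 20S, had the largest change, with 41.3, 43.2 and 47.2 CPM in fibrotic and 73.4, 85.1 and 99.5 CPM in FLO livers (log2 fold change -0.96 ± 0.08 SE, edgeR adjusted p = 1.49e-07). Usp14 and Uchl5, the deubiquitinases that associate with 19S, fell by 0.41 and 0.31 on the log2 scale, and Zfand5 by 0.37. Pomp, the maturation factor of the core, was at -0.20 (edgeR adjusted p = 0.0592) and the ubiquitin receptor gene Adrm1 at -0.20 (edgeR adjusted p = 0.0242).

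Upstream of the proteasome, the gene Uba1, whose product activates ubiquitin, fell by 0.44 on the log2 scale. Vcp and Ufd1, which encode the p97 unfoldase and a cofactor, were called lower at -0.54 and -0.64 (Vcp was at -0.49 without FLO replicate 1). With library size alone Vcp was at -0.37 and Ufd1 at -0.46, and neither was past the fold limit. The shuttle gene Ubqln2 was called higher at 0.57, and Faf2, another p97 cofactor, rose by 0.37 and was not past the fold limit.

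Interferon and class I antigen processing genes, the usual company of the immunoproteasome, were split. Tap2, which lies beside Psmb8 and Psmb9 on chromosome 17 and encodes the other chain of the peptide transporter, was called higher at 0.76 ± 0.09 (SE, edgeR adjusted p = 3.57e-06), as were Tapbp at 0.69, Irf8 at 0.58 and Igtp at 0.53. The call of Irf8 was lost without any one of fibrotic replicates 4 and 5 or FLO replicates 1, 2 and 4 (0.45 to 0.57, edgeR adjusted p up to 0.0120). That of Igtp was lost without any one of 8 libraries, all but fibrotic replicates 2 and 4 and FLO replicates 1 and 3 (0.44 to 0.54, edgeR adjusted p up to 0.0146). Tap1 and Irgm1 both rose by 0.49 without passing the fold limit. B2m, the class I light chain gene, was called lower at -0.67 (edgeR adjusted p = 0.000684) and Gbp2, a widely used interferon readout, at -0.90 (edgeR adjusted p = 0.000297). The factors Irf1 and Nlrc5 were at -0.31 and 0.01 and did not pass.

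Without FLO replicate 3, the library whose Xist count goes against its label, the same 6 members were called, and 8 members rose and 14 fell with no limit on the fold. Without fibrotic replicate 4 the 6 were called together with Psmc6, and 9 rose and 18 fell.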

How the data were processed

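The members and gene lists were chosen with earlier results of these data known. RNA-Seq of whole liver was available for 12 mice. The deposited table holds unnormalized counts of reads, 1 row per Ensembl identifier and 1 column per library. The submitters' processing notes name bcl2fastq, STAR 2.7.3a and mm10, and the study's methods name PISCES. The annotation release and the use of strand in counting are not given in the sources used here. Groups and replicate numbers came from the sample titles.

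Symbols matched 51745 of 56205 identifiers, and those without a symbol held 0.0587% of counts. Coordinates are those of GENCODE M21 (GRCm38). Of the 47 members, 13 share exon bases with another gene, 11 of them on the opposite strand. Differential expression was tested by robust quasi-likelihood F-tests in edgeR 4.0.16 (R 4.3.3) after TMM scaling and filterByExpr, with Benjamini-Hochberg adjustment over the 13416 genes tested. CPM used TMM-scaled library sizes, and log2 CPM added a prior count of 2. Pair ratios were tested by two-sided exact permutation over 924 assignments, whose smallest p is 0.00216, with a limit of 0.05. Genes given with values were all called members, the catalytic pairs, activators and inhibitor, the extremes of each class, called pathway genes, and Nfe2l1, Nfe2l2, Pomp and Adrm1. Other members with values were added after these were seen, and some pathway genes are not reported here. Replicate pairs all differed by more than counting noise. Replicate numbers did not pair the samples (correlations of -0.16 to 0.10). Alternatives were other scalings (RLE, library size alone), filters and thresholds, DESeq2 1.42.0, limma-voom (limma 3.58.1), a replicate block and leaving out each library. Intervals between libraries include counting error at 17815568 to 24814263 counts.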

Additional observations from a re-analysis of the deposited data

Results flagged for a closer look

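A library was singled out when its gap to the nearest value, divided by the range of its group of 6, passed the 95% limit of Dixon's test. Of 102 such ratios over the members and the 4 pair ratios, 10 passed, where chance gives about 1 in 20, or 5.1. Fibrotic replicate 4 accounted for 6 of them, always as the lowest of its group, with gap ratios of 0.640 for Psmb10, 0.701 for Psme1, 0.666 for Psmb4 and 0.661 for Psmg2 on the log2 CPM scale, 0.645 for the ratio of Psmb10 to Psmb7 and 0.711 for that of Psme1 to Psme3. Its log2 CPM of Psmb10 was 4.18, where the next fibrotic library had 4.99. Fibrotic replicate 4 also had the highest TMM factor of all libraries, which lowers its CPM, so its single-gene flags can depend on scaling. Whether they hold with library size alone was not tested. The pair ratios do not depend on library scaling. The largest gap ratio was 0.917, for Psmd8 in fibrotic replicate 2, with a log2 CPM of 7.28 against 7.55 in the next library. The others were Psma2 in fibrotic replicate 5 as the highest (0.650), Psmb10 in FLO replicate 3 as the highest (0.637) and Psmg2 in FLO replicate 2 as the lowest (0.779).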

How the results depend on the processing

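With library size alone the members called higher and lower went from 3 and 3 to 5 and 1, the pathway genes from 7 and 7 to 11 and 4, and the class medians to -0.11 (20S alpha), 0.0174 (20S constitutive beta), -0.15 (19S ATPases), -0.0112 (19S non-ATPases), 0.27 (activators) and 0.11 (20S assembly chaperones), while that of all tested genes moved by 0.18. Values that turned positive under it were Psma6 (0.10), Psma7 (0.17), Psmb3 (0.0586), Psmb4 (0.0174), Psmb6 (0.10), Psmd4 (0.10), Psmd11 (0.00891), Psmd12 (0.0820) and Psme1 (0.17), none of which passed the test with TMM. Psma7 was also at 4.48e-05 when at least 10 counts in every library were required. With library size alone Psmd7 (0.61) and Psmd8 (0.52) were called higher, and Psmd1 and Psmd9 were no longer called. Psmb10 (0.49, edgeR adjusted p = 0.00693) and Psmd5 (0.48, edgeR adjusted p = 0.00109) passed the test with library size alone. The counts moved most with the threshold. Without the fold limit 8 members rose and 16 fell at an adjusted p of 0.01 (pathway genes 11 and 12), and 9 and 22 at 0.05 (pathway genes 11 and 17).

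Leaving out 1 library gave 2 to 3 members called higher, 3 to 4 lower, 5 to 9 pathway genes higher and 5 to 7 lower. Under it Psma7 ranged from -0.0293 to 0.0519, Psme1 from -0.0282 to 0.0607, and Psmb9 from -0.0446 (without fibrotic replicate 3) to 0.19. The differences ranged from 0.33 to 0.46 for Psmb8 to Psmb5 and from 0.58 to 0.87 for Psmb10 to Psmb7, always at an exact permutation p under 0.05, and from 0.02 to 0.23 for Psmb9 to Psmb6 and -0.24 to -0.06 for Psme1 to Psme3, neither of which passed. The replicate numbers share no stated origin. With the replicate block, 3 members were called in each direction, and 6 rose and 14 fell with no fold limit, the losses being Psmb5, Psmc1, Psmd2 and Psme2, as with no low-count filter. Under a paired sign-flip test the 2 ratios, unchanged at 0.40 and 0.69, had exact p-values of 0.0938 and 0.0625. DESeq2 called 3 members higher and 4 lower, limma-voom 3 and 3, and RLE scaling and no low-count filter 3 and 4 each, the fourth being Psmc6. At these depths the least abundant member, Psma8, with 3 to 15 counts, allows no statement.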
